A study of Mus musculus with 14 samples.

Results

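The genes described here are 9 mast cell genes, Mcpt4, Cma1, Cpa3, Tpsb2, Tpsab1, Kit, Ms4a2, Fcer1a and Hdc, among 19937 genes measured in mouse epididymal fat. They were named as a set, with earlier results of these same arrays known, for being lower in fat without apolipoprotein E, that is, they were selected on these arrays' levels in EKO against WT fat, so every difference between genotypes is given below as a description with no test. Each was read from the probe set that carries only its symbol, and each had 1 such probe set. Levels were log2 values from RMA, a method that corrects, normalises and summarises Affymetrix probe signals, so that a difference of 1 is a doubling of signal. The working name of the set, mast cell genes lower without Apoe, held for the means of 8 of the 9 genes on the normal diet and 6 on the Western diet. In neither case did the arrays of the genotypes separate for any of them. Both counts take in Ms4a2 and Fcer1a, which could not be told from array background, and the 8 take in Tpsab1 at -0.04 ± 0.08. On the Western diet the means of Tpsab1, Kit and Hdc were higher in EKO, and Mcpt4, Cma1, Cpa3 and Tpsb2 were the genes above background that were lower.

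Total RNA of whole epididymal fat pads of male mice was measured on 14 arrays, 1 per animal, with the animals labelled as biological replicates. The groups were mice labelled EKO, for apolipoprotein E, on the C57BL6/J strain, given the Western diet (4 arrays) or the normal diet (4 arrays), and wild-type (WT) C57BL6/J mice on the Western diet (3 arrays) and on the normal diet (3 arrays). All mice started their diet at 8 weeks of age and stayed on it for 24 weeks, and the Western diet, labelled HFD, held 42% milk fat. The pad is a mixture of cells, so that fewer mast cells and less RNA per mast cell cannot be told apart in any of these values.

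Mast cells are long-lived tissue immune cells that store proteases, bound to the proteoglycan serglycin, together with histamine in cytoplasmic granules. They survive on stem cell factor, which signals through the receptor tyrosine kinase Kit, and they degranulate when antigen cross-links IgE held by the high-affinity receptor, whose alpha chain is encoded by Fcer1a and whose beta chain by Ms4a2. In mice, connective tissue mast cells, the kind found in fat, are marked by the chymases Mcpt4 and Cma1 (also called mouse mast cell protease 5), the tryptase Tpsb2 (mouse mast cell protease 6), carboxypeptidase A3 (Cpa3) and the histamine-forming enzyme histidine decarboxylase (Hdc). The transcription factor GATA2 maintains mast cell genes and binds sites built around the letters GATA.

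The RefSeq sequences just upstream of the start sites are shown for the 2 genes with the largest differences and for Cma1, which neighbours Mcpt4. Each is the 250 bases before the start in the mouse build GRCm38.p6, written 5′ to 3′ on the gene's strand, with AGATAA or TGATAA in capitals.
Mcpt4, chr14:56062311-56062560, minus strand: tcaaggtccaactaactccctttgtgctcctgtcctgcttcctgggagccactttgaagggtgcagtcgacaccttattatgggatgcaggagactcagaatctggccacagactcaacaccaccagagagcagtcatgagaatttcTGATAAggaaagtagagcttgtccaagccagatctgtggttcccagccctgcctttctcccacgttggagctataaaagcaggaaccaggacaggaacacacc
Cpa3, chr3:20242182-20242431, minus strand: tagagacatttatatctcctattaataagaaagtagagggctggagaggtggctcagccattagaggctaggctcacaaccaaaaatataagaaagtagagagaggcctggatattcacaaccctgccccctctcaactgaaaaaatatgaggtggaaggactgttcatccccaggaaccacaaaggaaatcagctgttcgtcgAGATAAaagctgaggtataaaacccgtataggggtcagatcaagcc
Cma1, chr14:55944676-55944925, minus strand: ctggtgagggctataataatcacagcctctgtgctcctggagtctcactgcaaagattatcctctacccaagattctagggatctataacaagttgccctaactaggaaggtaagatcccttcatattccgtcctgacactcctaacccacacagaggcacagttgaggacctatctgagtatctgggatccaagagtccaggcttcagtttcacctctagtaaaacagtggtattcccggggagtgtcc
The Mcpt4 window holds TGATAA with its first base at position -103, counting from -1 next to the start, and the Cpa3 window holds AGATAA with its first base at position -46. Neither AGATAA nor TGATAA was present on either strand of the Cma1 window. Other forms built around GATA were not counted for any gene, such as ctatct (reverse complement AGATAG) in the Cma1 window. Of the 9 genes, 7 had a window in the table (8 windows, since Kit had 2), and AGATAA or TGATAA on either strand (reverse complements TTATCT and TTATCA) was found for 4 of them, Mcpt4, Cpa3, Ms4a2 and Fcer1a, against 18.8% of the 27025 genes with such windows (16.6% of all 32851 windows of the same length). The letters CACATG, a form of the E-box bound by the mast cell factor MITF (reverse complement CATGTG), were found for Fcer1a only among the 7, against 13.8% of those genes, and CACGTG, which is its own reverse complement, for none of the 7, against 6.86%. These matches describe the letters in the windows and show no binding. Mcpt4 and Cma1 lie on chromosome 14 with starts 118293 bases apart, and Tpsab1 and Tpsb2 lie on chromosome 17 with starts 23063 bases apart. The tryptases are close copies of each other, as are the chymases, so signal may be shared between their probe sets and their values are uncertain to that extent.

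The labels and the arrays were checked first. Apoe itself read 10.04 ± 0.19 in EKO mice on the Western diet and 13.39 ± 0.26 in WT mice on that diet, and 9.74 ± 0.22 in EKO mice and 13.41 ± 0.24 in WT mice on the normal diet (mean ± SD, n = 4 EKO and 3 WT), 10.3-fold and 12.7-fold lower in EKO. Adipocyte markers averaged 12.9 to 13.2 in every array and epididymis markers 6.60 to 6.90, near background. The background of each array was taken as the mean of 1194 olfactory and vomeronasal receptor genes, most of which were assumed to be silent in fat. It was 6.30 to 6.57 in 9 arrays and 6.75 to 6.85 in the other 5, which were replicates 1 and 3 of EKO on the Western diet, replicate 2 of EKO on the normal diet and replicate 1 of both WT groups. The alpha and beta chains of the IgE receptor could not be told from this background. Group means were 6.20 to 6.44 for Ms4a2 and 6.64 to 6.83 for Fcer1a, and 60.55% of the chemosensory receptor genes were brighter than Ms4a2 and 44.05% brighter than Fcer1a, so no fold is given for either. For Tpsab1 that share was 37.2% and for Cma1 21.3%, and for Mcpt4, Cpa3, Tpsb2, Kit and Hdc it was 0.34% to 2.68%.

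**Figure D1:**
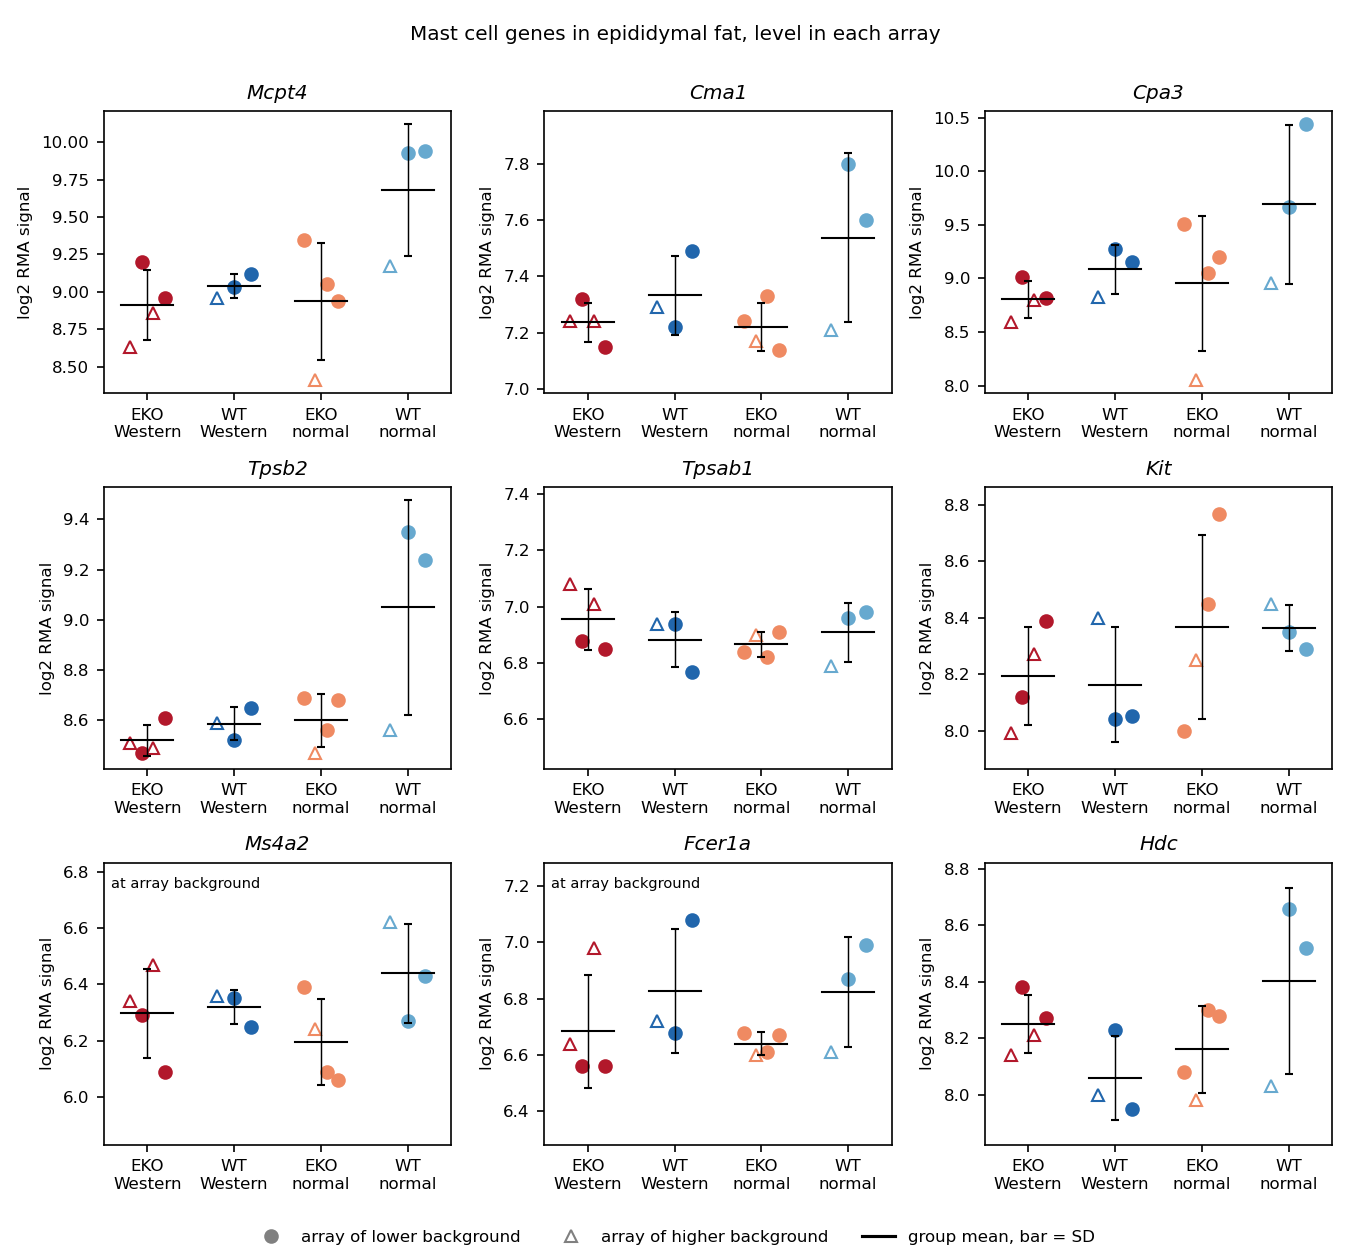
Level of each of the 9 mast cell genes (log2 RMA signal) in every array of the 4 groups, with the group mean and SD; open triangles are the 5 arrays of higher background. For Mcpt4, Cma1, Cpa3, Tpsb2 and Hdc, 2 of the 3 WT arrays on the normal diet stand highest while WT replicate 1, an array of higher background, lies among the other groups.

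The chymase Mcpt4 and the carboxypeptidase Cpa3 carried the largest differences of the set between genotypes on the normal diet. Mcpt4, a chymase that cleaves matrix proteins and peptides, read 9.35, 8.41, 9.05 and 8.94 in EKO mice against 9.17, 9.93 and 9.94 in WT mice. WT replicates 2 and 3 were above every EKO array, while WT replicate 1 was below EKO replicate 1, so the groups overlapped. The means differed by -0.74 ± 0.21 (log2, EKO minus WT, ± SE of the limma fit), a 1.67-fold lower signal in EKO. Cpa3, a zinc exopeptidase of the same granules that removes C-terminal residues, read 9.51, 8.05, 9.05 and 9.20 in EKO mice against 8.96, 9.67 and 10.44 in WT mice. Here too WT replicates 2 and 3 were the highest and replicate 1 lay inside the EKO range, and the difference was -0.74 ± 0.32. Cma1, the second chymase, read 7.24, 7.17, 7.33 and 7.14 in EKO mice against 7.21, 7.80 and 7.60 in WT mice, a difference of -0.32 ± 0.12 with the same overlap.

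The other genes of the set split between those that followed this order and those that did not. Tpsb2, the tryptase that forms heparin-bound tetramers, read 8.69, 8.47, 8.56 and 8.68 in EKO mice against 8.56, 9.35 and 9.24 in WT mice on the normal diet, a difference of -0.45 ± 0.15 (mean difference ± SE). Its EKO arrays lay within a narrow band that also took in WT replicate 1. Hdc, which makes histamine from histidine, read 8.08, 7.98, 8.30 and 8.28 in EKO mice against 8.03, 8.66 and 8.52 in WT mice, a difference of -0.24 ± 0.14. Kit, the stem cell factor receptor, read 8.00, 8.25, 8.45 and 8.77 in EKO mice against 8.45, 8.35 and 8.29 in WT mice, with a difference of 0.00 ± 0.16. The WT arrays for Kit lay inside the EKO range. Tpsab1, a tryptase whose protein C57BL/6 mice are known not to make, read 6.84, 6.90, 6.82 and 6.91 in EKO mice against 6.79, 6.96 and 6.98 in WT mice, a difference of -0.04 ± 0.08 at a level near background.

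Over the 9 genes the median difference on the normal diet was -0.25 log2, beside -0.01 over all genes. The middle value was that of Ms4a2, which lay at background, so this median is no measured fold. Without the dimmest 25% of rows, which left Mcpt4, Cma1, Cpa3, Tpsb2, Kit and Hdc, the median was -0.39. None of the 9 passed a limma adjusted p of 0.05 (Benjamini-Hochberg over all 19937 genes), beside 0.00502% of all genes, which is Apoe alone, and none separated the groups with EKO lower, beside 0.868% of all genes. The genes were picked for their genotype difference, with the diet not stated, so nothing is read from these shares on either diet. WT replicate 1, the array that lay low for Mcpt4, Cma1, Cpa3, Tpsb2 and Hdc, moved the median: without it the value was -0.43. Within the arrays of lower background, 3 EKO and 2 WT, a subset chosen after the data were seen, the difference was -0.82 for Mcpt4, -0.80 for Cpa3, -0.66 for Tpsb2, -0.47 for Cma1 and -0.37 for Hdc. Kit was 0.09 there.

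On the Western diet the genotypes lay closer together. Mcpt4 read 8.63, 9.20, 8.86 and 8.96 in EKO mice against 8.96, 9.03 and 9.12 in WT mice, a difference of -0.13 ± 0.21 (EKO minus WT, ± SE). The EKO arrays for Mcpt4 reached both below and above the WT arrays. Cpa3 read 8.59, 9.01, 8.80 and 8.82 in EKO mice against 8.83, 9.27 and 9.15 in WT mice, a difference of -0.28 ± 0.32. Replicate 2 was the only EKO array for Cpa3 above a WT array. Tpsb2 read 8.51, 8.47, 8.49 and 8.61 in EKO mice against 8.59, 8.52 and 8.65 in WT mice (-0.07 ± 0.15), and Cma1 read 7.24, 7.32, 7.24 and 7.15 in EKO mice against 7.29, 7.22 and 7.49 in WT mice (-0.10 ± 0.12). Hdc went the other way, at 8.14, 8.38, 8.21 and 8.27 in EKO mice against 8.00, 8.23 and 7.95 in WT mice (0.19 ± 0.14). Kit (0.03 ± 0.16) and Tpsab1 (0.07 ± 0.08) overlapped between genotypes as well. The median over the 9 genes was -0.07, beside 0.03 over all genes. None passed the limma test, beside 5.69% of all genes, and none separated the groups with EKO lower, beside 8.71% of all genes; these are counts only, since the genotype difference picked the genes.

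**Figure D2:**
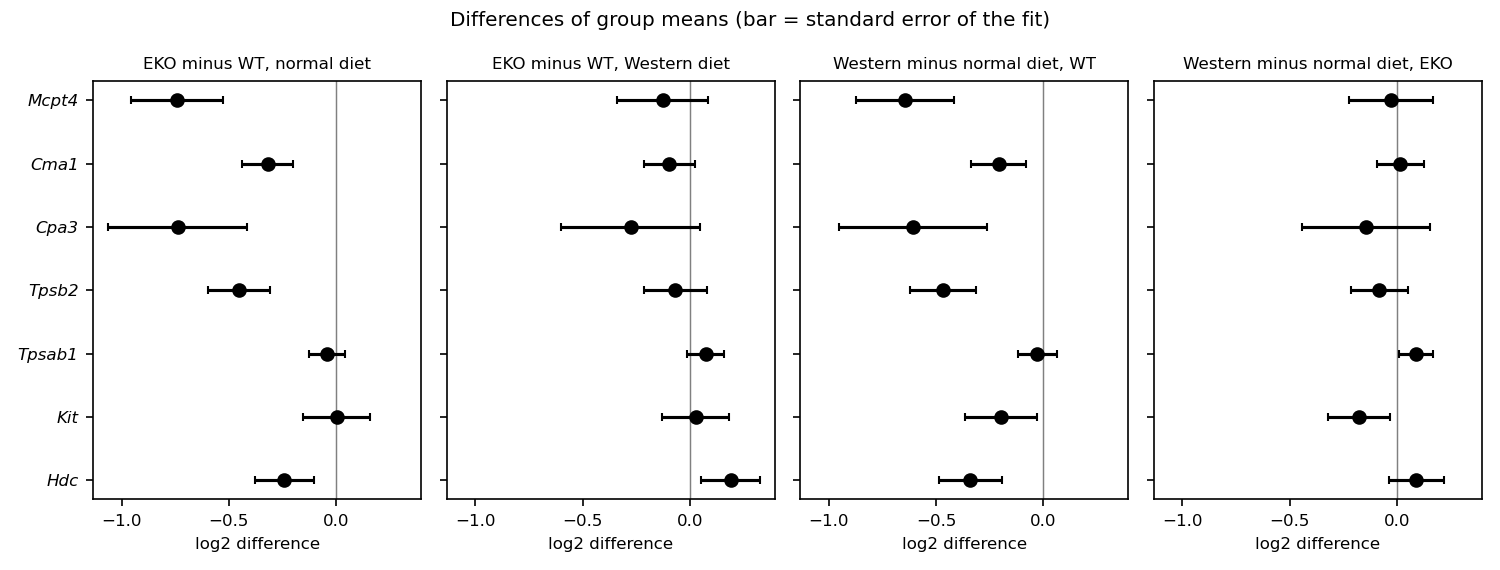
Differences of group means for the 7 mast cell genes above array background (log2, points) with the standard error of the fit (bars), in 4 panels: EKO minus WT on each diet and Western minus normal diet in each genotype. Mcpt4, Cpa3, Tpsb2, Cma1 and Hdc lie left of 0 in the panels that hold the WT mice on the normal diet, and Kit and Tpsab1 lie near 0 between genotypes on the normal diet.

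The diet comparison within WT mice was not used to pick the genes, though it shares the WT arrays on the normal diet with the genotype comparison and is no independent support of it. High values in WT mice were part of what picked the genes, so the test of diet in WT reuses values that entered the selection. Mcpt4 was the only gene of the set whose groups separated, with all 3 arrays of WT mice on the Western diet (8.96, 9.03 and 9.12) below all 3 on the normal diet (9.17, 9.93 and 9.94). The difference was -0.64 ± 0.23 log2 (Western minus normal, ± SE), with a limma adjusted p of 0.133. That 1 of 9 genes separated with the Western diet lower is near the background, since 11.3% of all genes did. Tpsb2 differed by -0.47 ± 0.16 (limma adjusted p = 0.105), Hdc by -0.34 ± 0.15 (0.24), Cpa3 by -0.61 ± 0.35 (0.436), Cma1 by -0.21 ± 0.13 (0.489), Kit by -0.20 ± 0.17 (0.69) and Tpsab1 by -0.03 ± 0.09 (0.973). In each of these 6 genes the groups overlapped.

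By limma 0 of the 9 genes passed in either direction in WT mice, beside 5.49% of all genes, and 3 (Mcpt4, Tpsb2 and Hdc) were lower on the Western diet at an unadjusted p under 0.05, beside 8.42% of all genes. The median of the 9 was -0.21, beside -0.02 over all genes. High values in WT mice were part of what picked the genes, so nothing is read from these counts and shares or from those that follow. The calls changed with single arrays and with the handling of array background. Without WT replicate 2 or 3 on the normal diet 0 passed, and the difference was smaller: Cpa3 was at -0.23 without replicate 3 (adjusted p = 0.934), and without replicate 2 Cma1 was at -0.08 (0.949), Hdc at -0.21 (0.683) and Tpsb2 at -0.32 (0.405). Without WT replicate 1 on the normal diet 3 genes passed with the Western diet lower, beside 2.79% of all genes: Mcpt4 (adjusted p = 0.0282), Tpsb2 (0.0016) and Hdc (0.0282). Within the arrays of lower background, 2 on each diet, 4 genes passed, beside 4.16% of all genes: Mcpt4 by -0.86 ± 0.14 (adjusted p = 0.00516), Tpsb2 by -0.71 ± 0.10 (0.0028), Cpa3 by -0.85 ± 0.23 (0.043) and Hdc by -0.50 ± 0.12 (0.0324). With background as a block Mcpt4 and Tpsb2 passed, beside 4.73% of all genes lower on the Western diet, with background as a covariate Mcpt4 alone, beside 4.98%, and with array weights Mcpt4, Cma1, Cpa3 and Tpsb2, beside 12.9%.

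In EKO mice none of the 9 genes passed between diets, and neither did any of all genes (0%). No gene of the 9 reached an unadjusted p under 0.05 by limma either, beside 4.43% of all genes. Low values in EKO mice were part of what picked the genes, so nothing is read from these counts and shares. Mcpt4 differed by -0.03 ± 0.20 (limma adjusted p = 0.988), Cpa3 by -0.14 ± 0.30 (0.957), Tpsb2 by -0.08 ± 0.13 (0.953), Cma1 by 0.02 ± 0.11 (0.987), Hdc by 0.09 ± 0.13 (0.948), Kit by -0.17 ± 0.14 (0.946) and Tpsab1 by 0.09 ± 0.08 (0.946), Western minus normal. The groups overlapped for each of them, and the Western diet arrays for Kit, 7.99 to 8.39, lay mostly within its normal diet range of 8.00 to 8.77. The diet difference in EKO minus that in WT had a median of 0.23 over the 9 genes, beside 0.03 over all genes, and was largest for Mcpt4 (0.62 ± 0.30). It is built from the genotype contrasts and is given as a description: none of the 9 was past the limma threshold in it, beside 0.482% of all genes, and nothing is read from that.

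The order of the group means put WT mice on the normal diet highest for Mcpt4, Cma1, Cpa3, Tpsb2 and Hdc. Below that group Mcpt4 and Cpa3 had the same order: WT on the Western diet, EKO on the normal diet, then EKO on the Western diet. Cma1, Tpsb2 and Hdc each had another order, and the 3 other groups overlapped for all 5. For Mcpt4 the means were 8.91 ± 0.23 in EKO mice and 9.04 ± 0.08 in WT mice on the Western diet, and 8.94 ± 0.39 in EKO mice and 9.68 ± 0.44 in WT mice on the normal diet (SD). For Kit the means ran from 8.17 to 8.37 and differed by less than the spread of the EKO arrays on the normal diet (SD 0.33).

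Within groups the genes did not vary as 1 block. After each group's mean was removed, Pearson correlations over the 14 arrays were above 0 for 23 of the 36 pairs, with a median of 0.16. They are descriptions, since the arrays share their background and each pair the same 14 animals. Mcpt4, Cma1, Cpa3, Tpsb2 and Hdc, a subset chosen after the values were seen, had r of 0.43 to 0.89 in their 10 pairs. The closest pair was Mcpt4 with Cpa3, at r = 0.89 (Spearman 0.80, and 0.94 without WT replicates 2 and 3 on the normal diet). Among 19936 genes Cpa3 ranked 7 for likeness to Mcpt4, and Mcpt4 ranked 13 for likeness to Cpa3. They lie on different chromosomes, and the cause of their likeness was not tested. Kit had r of -0.27 to 0.13 with those 5 genes, and Ms4a2, at background, -0.61 to -0.19.

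**Figure D3:**
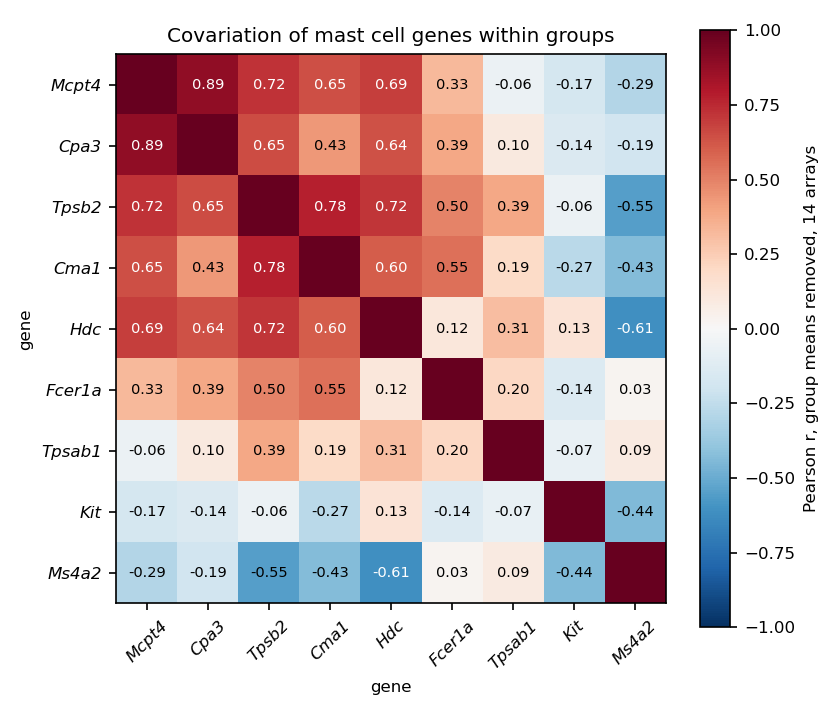
Pearson correlation of each pair of the 9 mast cell genes over 14 arrays after group means were removed (colour and printed value). The block of Mcpt4, Cpa3, Tpsb2, Cma1 and Hdc lies between 0.43 and 0.89, and Kit and Ms4a2 lie outside it.

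The array background moved with the same genes, as it did with many others. Within groups it correlated with Hdc at -0.77, Cpa3 at -0.66, Mcpt4 at -0.65, Tpsb2 at -0.44 and Cma1 at -0.40, and with Ms4a2 at 0.65. By Spearman correlation the values were -0.76 for Hdc, -0.68 for Cpa3, -0.61 for Mcpt4, -0.22 for Cma1 and -0.14 for Tpsb2. Kit was at -0.02 by Pearson correlation. By that measure 10.8% of all genes lay lower against background than Hdc, 21.3% lower than Cpa3 and 22.5% lower than Mcpt4. For Tpsb2 the share was 36.8% and for Cma1 38.8%, so following background was not particular to these genes. When background was removed by regression, Mcpt4 and Cpa3 kept r = 0.81, while the lowest of the 10 pairs, Cma1 with Cpa3, was 0.24. Its part in the remaining correlations was not tested.

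**Figure D4:**
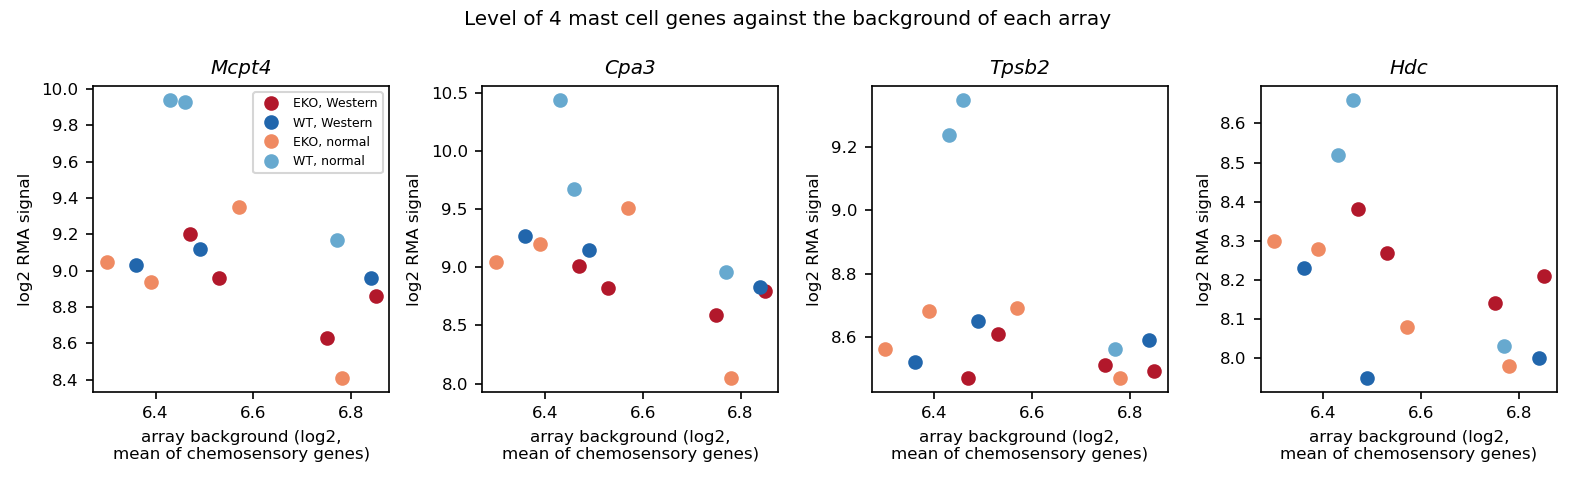
Level of Mcpt4, Cpa3, Tpsb2 and Hdc (log2 RMA signal) in each array against the background of that array (mean log2 level of 1194 chemosensory receptor genes), coloured by group. The arrays of higher background, at 6.75 to 6.85, hold the 3 lowest values of Mcpt4 and of Cpa3, and the 2 highest values of each gene belong to WT mice on the normal diet with backgrounds of 6.43 and 6.46.

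The genes outside the set whose within-group pattern was most like it had a mean r of 0.42 to 0.46 with the 9 genes over the 14 arrays. The rule passed over small RNAs, predicted genes, antigen receptor segments and the chemosensory receptors, and 14 of the 50 most similar genes before that step were small RNAs (355 among all genes). The 10 named by this rule were Nrep, Tmem252, Ackr1, Gxylt2, Mmp2, Lepr, Fzd5, Fam71e1, Samd5 and Card9. Of these Nrep had 0.46 and itself followed array background at -0.63, whereas Lepr, the leptin receptor, had 0.43 and followed background at -0.27.

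Other mast cell genes were taken from 5 lists of 75 genes, 64 of them measured. On the normal diet 0 of 64 passed between genotypes by limma, with 1 higher (Slamf7) and 1 lower (Mrgprb1) in EKO at an unadjusted p under 0.05. Mrgprb1, an orphan Mas-related receptor of mouse connective tissue mast cells, was named after its values were seen. It read 6.71, 6.92, 6.92 and 6.90 in EKO mice against 7.21, 7.40 and 7.30 in WT mice on the normal diet, a difference of -0.45 ± 0.10 (adjusted p = 1). No EKO array reached a WT array, and here WT replicate 1 stood with its group. On the Western diet it read 6.69, 6.69, 6.95 and 6.94 in EKO mice and 7.01, 6.83 and 7.08 in WT mice. The Western diet group of WT mice lay below the normal diet group with no overlap (-0.33 ± 0.11, adjusted p = 0.09). The EKO mean on the Western diet, 6.82, was not above the highest array background. Slc18a2, the vesicular monoamine transporter that loads histamine into granules, and Mrgprb2, a receptor for basic secretagogues that was at background in all groups, also separated on the normal diet with EKO lower. These 3 of 64 stand beside 0.868% of all genes, and 2 of 64, Hpgds and Slamf7, separated with EKO higher, beside 0.848%. The set was picked on EKO against WT levels of these same arrays. Genotype differences of the 64 genes, on either diet, are therefore no independent support of it.

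The regulators of the mast cell lineage did not pass in any comparison, which is near the share of all genes that did. Of 16 measured growth and transcription genes, 0 passed by limma in each of the 4 comparisons, with at most 1 at an unadjusted p under 0.05 in any of them. Kitl, which encodes stem cell factor, differed by 0.04 ± 0.13 between EKO and WT mice on the normal diet, Gata2 by 0.04 ± 0.11 and Mitf by 0.03 ± 0.16. Of 8 further protease genes 0 passed in any of the 4 comparisons, and none reached an unadjusted p under 0.05. Of all genes, 0.00502% passed by limma between genotypes on the normal diet and 5.69% on the Western diet. Between diets 5.49% passed in WT mice and 0% in EKO mice, so nothing is read from 0 of 16 or 0 of 8.

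In WT mice 5 of 11 measured IgE signalling genes, 4 of 13 granule and mediator genes and 2 of 16 receptors were higher on the Western diet, and the rest did not pass. Of the 64 genes, 11 were higher and 0 lower on the Western diet in WT mice (limma adjusted p under 0.05), beside 3.19% and 2.3% of all genes. They included Hpgds, which makes prostaglandin D2 (1.59 ± 0.23, adjusted p = 0.00114), the adaptor Lat2 (1.07 ± 0.13, 0.000334), the surface receptor Slamf7 (1.56 ± 0.18, 0.00023) and Fcer1g, the gamma chain of Fc receptors (0.94 ± 0.20, 0.0118). The Fcer1g call was lost without WT replicate 2 on the normal diet (adjusted p = 0.0608) or WT replicate 3 on the Western diet (0.0559). On the Western diet 13 of the 64 were lower in EKO mice and 0 higher, beside 4.05% and 1.64% of all genes, led by C5ar1, a complement receptor (-1.34 ± 0.18, adjusted p = 0.000884), Lat2 (-1.12 ± 0.12, 0.000107), Slamf7 (-1.08 ± 0.16, 0.00182) and Alox5ap, which serves leukotriene synthesis (-0.93 ± 0.24, 0.0336). The Alox5ap call was lost without WT replicate 2 (adjusted p = 0.12) or 3 (0.2), or EKO replicate 1 (0.094), 3 (0.0581) or 4 (0.0682), of the Western diet. In EKO mice 0 of 64 passed between diets. Macrophage markers moved in the same comparisons: 6 of 13 were higher and 1 lower on the Western diet in WT mice, and 6 were lower and 0 higher in EKO on the Western diet. The mean level of the 13 per array was 9.81 to 10.3 in EKO and 10.6 to 11.0 in WT mice on the Western diet, and 9.53 to 10.4 in EKO and 9.84 to 10.1 in WT mice on the normal diet (log2). Their part in the changes of the 64 genes was not tested.

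Of the cell types that could share the members' genes, basophil markers passed in 0 of 10 and eosinophil markers in 0 of 7 in each of the 4 comparisons. Over all genes 0.00502% and 5.69% passed between genotypes on the normal and Western diets, and 5.49% and 0% between diets in WT and EKO mice. The basophil list is not separate: it shares Fcer1a and Ms4a2 with the set, and Prss34, Cd200r3, Il3ra, Gata2 and Cyp11a1 with the other mast cell lists. The eosinophil list shares Siglecf with them. Mesothelial markers, of the cells that cover the pad's surface, were lower on the Western diet in WT mice in 5 of 7, with a median of -1.16. Upk3b, a uroplakin of mesothelial cells, changed there by -1.17 ± 0.19 (adjusted p = 0.00213). On the normal diet all 7 mesothelial values were below 0 in EKO relative to WT, with a median of -0.40, and 0 of 7 passed. The mean level of these 7 per array was 9.81 to 10.1 in EKO and 9.30 to 9.49 in WT mice on the Western diet, and 9.59 to 10.2 in EKO and 10.2 to 10.7 in WT mice on the normal diet. Progenitor and fibroblast markers were also all below 0 in EKO relative to WT on the normal diet (8 of 8, median -0.20, 0 passed), with mean levels per array of 10.4 to 11.0 in EKO and 10.8 to 11.2 in WT mice on that diet. The part of these cells in the mast cell values was not tested. On the Western diet the 7 mesothelial values were all above 0 in EKO relative to WT, with a median of 0.55, beside a median of -0.07 for the mast cell genes. Ano1, a channel of interstitial cells that also carry Kit, fell by 1.22 on the log2 scale on the Western diet in WT mice (SE 0.24, adjusted p = 0.00881), while Kit did not pass. It was the only one of 9 such markers to pass there, and their median was -0.06.

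**Figure D5:**
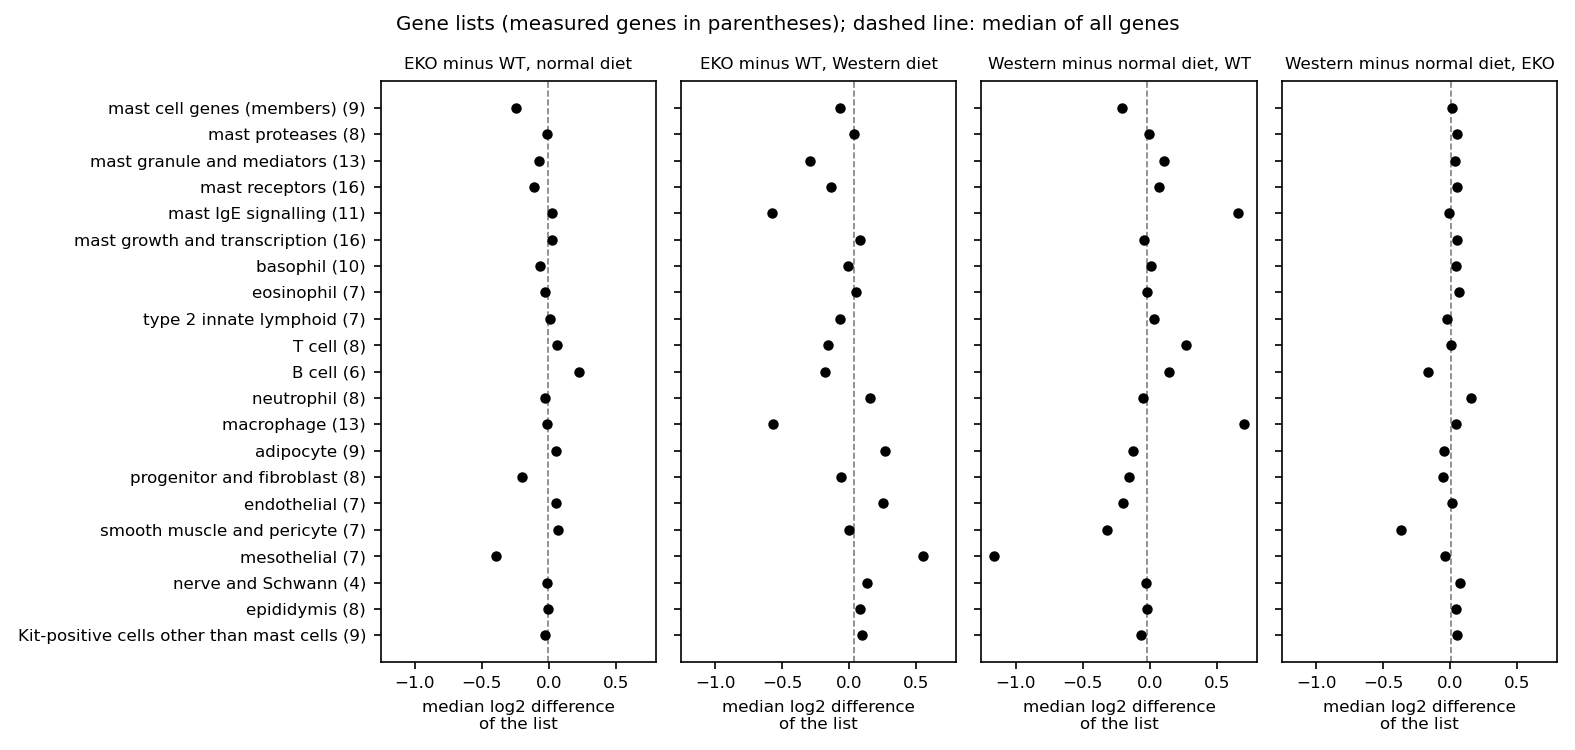
Median log2 difference of each gene list (points; number of measured genes in parentheses) in the 4 comparisons, with the median of all genes as a dashed line. The 9 mast cell genes, of which Ms4a2 and Fcer1a were at background, lie at -0.25 between genotypes on the normal diet. They lie at -0.21 between diets in WT mice, where the macrophage list lies at 0.70 and the mesothelial list at -1.16.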

How the data were processed

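Total RNA of 14 epididymal fat pads was measured on Affymetrix arrays. The deposited values are log2 signals per probe set, made by the authors with RMA per the submitters' processing notes, with no version or settings given in the sources used here; the log2 scale was read from the range of the values, 4.21 to 14.5. Array medians were 7.92 to 8.10, and correlations between arrays of a group were 0.976 to 0.995. The number of arrays per group, 3 or 4, limits the precision.

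Of 34760 probe sets, 21640 carried 1 gene symbol, 1321 several and 11799 none in the platform annotation. Only the first kind was named, with the probe set of highest mean kept where a gene had more (954 genes). Of the 19937 genes, 19855 matched RefSeq GRCm38.p6 by Entrez ID.

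One linear model with the 4 group means was run in R 4.3.3 with limma 3.58.1 and its moderated test (two-sided), and adjusted p-values under 0.05 by Benjamini-Hochberg counted as passing. Standard errors of differences are from that fit. A gene was called at background where its mean did not exceed 6.85, the highest array background. The fit was tested on simulated data. Alternatives were other normalisations, filters, array weights, background terms, a replicate block and leaving out each array. The genes and lists were chosen with earlier results of these data known. Named genes outside the set were those that passed, at most 4 per direction, the brightest of each cell type list or those of most similar pattern. Correlations were computed on values minus the group mean.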

Additional observations from a re-analysis of the deposited data

Results flagged for a closer look

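The diet difference in EKO mice minus that in WT mice passed the limma test for 2 of the 64 other mast cell genes, beside 0.482% of all genes. Other leukocytes use both genes too. In the same comparison 12 of 13 macrophage markers were below 0, with a median of -0.64 and 1 passing, and their part in the 2 calls was not tested. Slamf7 had a value of -1.51 log2 ± 0.23 (adjusted p = 0.00991): the Western diet level was 8.35 in EKO mice and 9.43 in WT mice. Its normal diet level was 8.30 in EKO mice and 7.87 in WT mice, so the genotypes lay in the opposite order there. Lat2 had a value of -1.12 ± 0.17 (adjusted p = 0.00726): the Western diet level was 8.43 in EKO mice and 9.56 in WT mice. Its normal diet level was 8.485 in EKO mice and 8.489 in WT mice. Both kept their direction and stayed under the threshold in the 25 alternatives run for each. None of the 18 groups of 4 arrays checked for the 9 mast cell genes held an array standing apart by Dixon's criterion; groups of 3 were not checked.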

How the results depend on the processing

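In WT mice, the number of the 9 genes lower on the Western diet was 0, and 4 with array weights, 2 with background as a block, 1 with background as a covariate and 4 in the arrays of lower background, an alternative chosen after seeing the data. Leaving out each array gave 0 to 3, the highest without WT replicate 1 on the normal diet. Between genotypes on the normal diet the median was -0.39 and -0.74 without the dimmest 25% and 50% of rows, where the dimmer genes of the set are no longer in the fit, and -0.43 to -0.19 when each array was left out (lowest without that same WT replicate 1). The genotype by diet difference had medians of 0.41 and 0.46 without those rows, and 0.19 to 0.39 when each array was left out. Of the 64 other mast cell genes, 13 passed between genotypes on the Western diet, against 25 with array weights and 3 to 16 when each array was left out, with 3 without WT replicate 3, 4 without WT replicate 2 or EKO replicate 1, 7 without EKO replicate 3 and 6 without EKO replicate 4 of that diet. Between diets in WT mice 11 passed, against 23 with array weights, 17 with a background block, 18 with a background covariate, 7 with only the groups compared and 3 to 14 when each array was left out, with 4 without replicate 2 on the normal diet and 6 and 3 without replicates 2 and 3 on the Western diet. The calls over all genes moved too. With array weights 3410 of 19937 genes were higher and 3379 lower in EKO on the Western diet, against 326 and 808 without weights. Between diets in WT mice the counts were 2655 higher and 2569 lower, against 636 and 458. Without WT replicate 3 of the Western diet they were 98 and 218 between genotypes, and 252 and 163 between diets. So nothing is read from the changed counts of the 64 genes. The cause was not tested.

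Small differences between diets in EKO mice changed sign. Mcpt4 was 0.012 with quantile normalisation, 0.089 with a background block, 0.114 with a background covariate and -0.205 to 0.110 when each array was left out. Cma1 was -0.042 with quantile normalisation, -0.045 with array weights, -0.004 in arrays of lower background and -0.011 to 0.053 when each array was left out. Cpa3 was 0.028 with a background block, 0.082 with a background covariate and -0.444 to 0.043 when each array was left out. Tpsab1 in WT mice was -0.090 to 0.028 when each array was left out.

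Same-numbered arrays of different groups correlated at -0.59 to 0.64 (8 of 13 pairs over 0.1), so the numbers were not taken as pairs. With replicate number as a block, 0 of the 9 genes passed between diets in either genotype, the median between genotypes was -0.27 on the normal diet and -0.07 on the Western diet, and 16 and 13 of the other mast cell genes passed between genotypes on the Western diet and between diets in WT mice. Of all 19937 genes, 345 were then higher and 1327 lower in EKO on the Western diet. In WT mice 773 were higher and 527 lower on the Western diet.

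Ms4a2, Fcer1a, Tpsab1 and Cma1 lie at or near background, where signal hides change.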
